A study of Solanum lycopersicum with 8 samples.

Results

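Class III homeodomain-leucine zipper (HD-ZIP III) genes were followed in proliferating inflorescence meristems of 2 tomato (*Solanum lycopersicum*) double mutants. The members were chosen by gene ID as a family, with earlier results of these data known: Solyc11g069470.3 (*REV*), Solyc02g024070.3, Solyc12g044410.2, Solyc08g066500.4, Solyc03g120910.4 and Solyc02g069830.4. They are 6 of the 34109 genes in the deposited table, and all 6 were measured and tested. The name *REV* came with the list of IDs. No table used here pairs any of the 6 IDs with a name, so the other members are called by ID and given no role of their own.
The study compared *plt3* *plt7*, with CRISPR–Cas9 mutations in both *PLETHORA* (*PLT*) paralogues, with *ej2* *j2*, mutated in both *SEPALLATA* paralogues. Both double mutants overproliferate meristems, and meristems were dissected from plants 8 weeks old, with 4 libraries of each genotype. The cultivar given in the methods of the study for the edited lines is M82. No source used here names the alleles of the sampled plants, and no wild-type library was analysed here.
HD-ZIP III proteins are plant transcription factors that join a homeodomain and a leucine zipper to a START domain. In *Arabidopsis*, where the family is best known, they specify the upper (adaxial) side of lateral organs, take part in forming and keeping shoot and floral meristems and pattern vascular tissue. *REVOLUTA* (*REV*) is the *Arabidopsis* member most closely tied to the initiation of lateral and floral meristems. Family transcripts are cut under the guidance of the microRNAs miR165 and miR166, which keep them out of the lower (abaxial) side, and KANADI and YABBY proteins act on that opposite side. Related *Arabidopsis* members overlap in function, so levels of the whole family and of each member are both of interest.

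Levels are in TPM, the transcripts of a gene per 1000000 transcripts of a library after correction for transcript length, so levels of different genes can be set side by side. Read totals cannot be recovered from TPM, and sequencing depth is therefore unknown. Between 21479 and 22295 genes were above 0 in each *plt3* *plt7* library, and between 21397 and 22792 in each *ej2* *j2* library. *ej2* *j2* replicates 1 and 2 stood apart, with 9.16% and 10.7% of all TPM in their 10 highest genes, against at most 5.75% in each of the other 6 libraries. Transcripts of *PLT3*, *PLT7* and *EJ2* do not check the genotypes, and the level of *J2*, also mutated, is not given here. *PLT3* was at 1.75 to 22.5 TPM in *plt3* *plt7* and 8.85 to 47.2 TPM in *ej2* *j2*, *PLT7* was at 23.3 to 73.7 TPM in *plt3* *plt7* and 44.1 to 423 TPM in *ej2* *j2*, and *EJ2* was listed at 0 in all 4 *plt3* *plt7* libraries and at 3.67 to 15.2 TPM in *ej2* *j2*. The tissue is bulk, so fewer cells of a type and less RNA per cell cannot be told apart.

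All 6 HD-ZIP III genes were expressed above 1 TPM in all 8 libraries, and a single member held the largest part of the family transcript pool in most of them. Solyc03g120910.4 was the highest member in 2 of 4 *plt3* *plt7* libraries and in 4 of 4 *ej2* *j2* libraries. *REV* was the highest in the other 2, *plt3* *plt7* replicates 1 and 3. Solyc08g066500.4 was the lowest member in 3 of 4 *plt3* *plt7* and 2 of 4 *ej2* *j2* libraries.
The level of Solyc03g120910.4 over replicates 1 to 4 was 61.0, 429, 215 and 179 TPM in *plt3* *plt7*, against 387, 504, 747 and 379 TPM in *ej2* *j2*, and other values keep this order of replicates. In *ej2* *j2* it lay above 98.4% of the genes with a value above 0 in each library. In all, 3 of the 4 *plt3* *plt7* libraries lay below all *ej2* *j2* libraries, and replicate 2 lay among them. The mean was 221 ± 153 TPM in *plt3* *plt7* and 504 ± 171 TPM in *ej2* *j2* (SD, n = 4 each).
Solyc12g044410.2 was at 13.8, 259, 50.3 and 41.5 TPM in *plt3* *plt7*, against 167, 65.7, 239 and 204 TPM in *ej2* *j2*. Again 3 *plt3* *plt7* libraries lay below all *ej2* *j2* libraries, whereas replicate 2 lay above all of them. The mean was 91.1 ± 113 TPM in *plt3* *plt7* and 169 ± 74.9 TPM in *ej2* *j2* (SD, n = 4 each).
*REV* was at 63.7, 154, 424 and 96.5 TPM in *plt3* *plt7*, against 93.7, 23.6, 181 and 10.9 TPM in *ej2* *j2*. All 4 *plt3* *plt7* libraries lay above the *ej2* *j2* median, but only replicate 3 lay above every *ej2* *j2* library. The mean was 185 ± 164 TPM in *plt3* *plt7* and 77.4 ± 78.3 TPM in *ej2* *j2* (SD, n = 4 each).
Solyc02g069830.4 was at 21.6, 172, 17.7 and 80.6 TPM in *plt3* *plt7*, against 12.4, 17.2, 55.5 and 25.7 TPM in *ej2* *j2*. Replicates 2 and 4 of *plt3* *plt7* were above every *ej2* *j2* library, and the other 2 were among them. The mean was 73.0 ± 72.1 TPM in *plt3* *plt7* and 27.7 ± 19.3 TPM in *ej2* *j2* (SD, n = 4 each).
The levels of the remaining members lay over each other in both genotypes. Solyc02g024070.3 was at 59.5, 59.7, 116 and 128 TPM in *plt3* *plt7*, against 16.5, 170.1, 123.0 and 67.0 TPM in *ej2* *j2*. Solyc08g066500.4 was at 9.27, 4.01, 30.8 and 11.6 TPM in *plt3* *plt7*, against 2.39, 1.44, 61.8 and 20.6 TPM in *ej2* *j2*. Of the 2, Solyc08g066500.4 was the less even, with the highest *ej2* *j2* library 43.1 times the lowest.

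**Figure D1:**
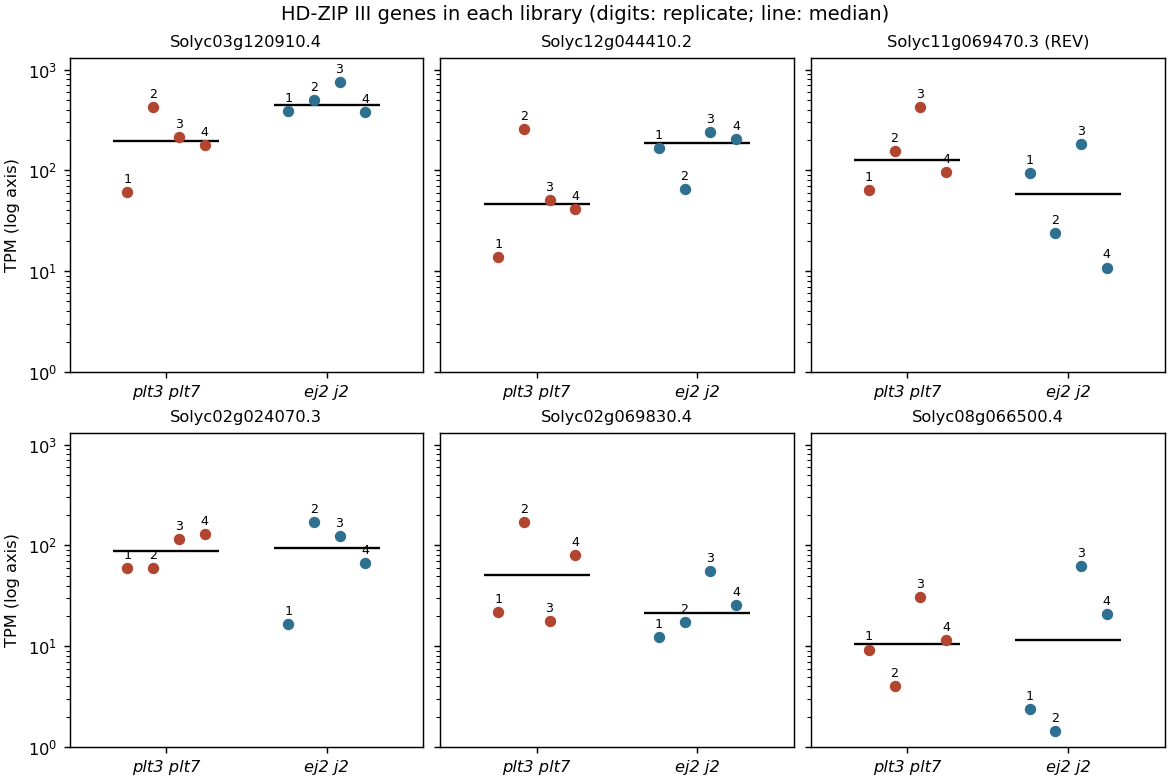
Level of each HD-ZIP III gene in TPM on a log axis, 1 panel per gene, with *plt3* *plt7* libraries on the left and *ej2* *j2* libraries on the right. Points are libraries with their replicate number and lines are medians; Solyc03g120910.4 and Solyc12g044410.2 each have 3 *plt3* *plt7* libraries below all *ej2* *j2* libraries, and the 2 groups overlap in all 6 panels.

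None of the 6 HD-ZIP III genes passed the test for a difference between *plt3* *plt7* and *ej2* *j2*. The comparison addresses how the transcriptomes of the 2 overproliferating mutants differ. It was made with limma on log2(TPM + 1) over 19544 genes averaging 1 TPM or more, at a Benjamini-Hochberg adjusted p below 0.05. Of all genes tested, 1.84% passed. With an unadjusted p under 0.05 none of the 6 passed either, against 13.8% of all genes tested, and no member had libraries that did not overlap between the genotypes, against 6.87% of all genes tested (3.87% with *plt3* *plt7* higher and 3% with it lower). The exact two-sided permutation test gave no member a p below 0.0857, where 4 libraries against 4 allow 0.0286 at the lowest.
Among the members, 4 had a log2 difference above 0 and 2 below 0, with a median of 0.25 over the family and 0.05 over all genes tested. Absolute log2 differences reached 1 in 4 of the 6 members, against 34.1% of all genes tested. *REV* had the highest log2 difference, 1.59 (standard error 0.92, 95% confidence interval -0.21 to 3.39, adjusted p = 0.448, limma). Its mean level in *plt3* *plt7* was 2.39 times that in *ej2* *j2*, and the exact permutation test gave p = 0.229.
Solyc12g044410.2 had a log2 difference of -1.51 (standard error 0.91, 95% confidence interval -3.31 to 0.29, adjusted p = 0.482, limma; exact permutation p = 0.171). Solyc03g120910.4 had a log2 difference of -1.44 (standard error 0.92, 95% confidence interval -3.24 to 0.37, adjusted p = 0.520, limma; exact permutation p = 0.0857), with a mean level 2.28 times as high in *ej2* *j2* as in *plt3* *plt7*. The interval of each of these 3 genes spans 0 and also takes in differences of several fold.
For Solyc02g069830.4 the log2 difference was 1.00 (standard error 0.90, adjusted p = 0.703, limma), and it was -0.26 without *plt3* *plt7* replicates 2 and 4, its highest libraries. Solyc02g024070.3 and Solyc08g066500.4 had log2 differences of 0.28 (95% confidence interval -1.51 to 2.08) and 0.22 (95% confidence interval -1.50 to 1.94), with adjusted p = 0.943 and 0.955 (limma). Without *ej2* *j2* replicate 1 these became -0.39 and -0.32, so neither has a settled direction. That of Solyc08g066500.4 was -0.47 without *ej2* *j2* replicate 2, 1.09 without *ej2* *j2* replicate 3 and -0.25 without *plt3* *plt7* replicate 3.

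**Figure D2:**
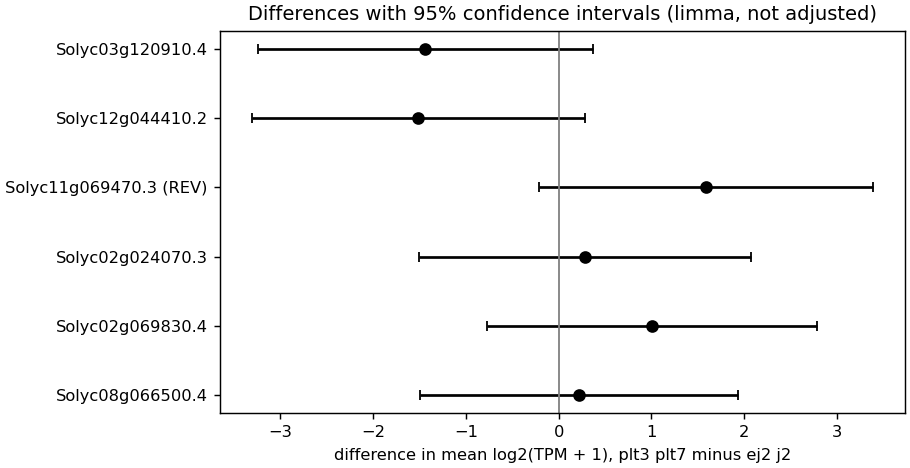
Difference in mean log2(TPM + 1) between *plt3* *plt7* and *ej2* *j2* for each HD-ZIP III gene, with bars for the 95% confidence interval from limma. All 6 bars cross 0, with the points of Solyc12g044410.2 (-1.51) and Solyc03g120910.4 (-1.44) to the left and that of *REV* (1.59) farthest to the right.

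The shares of 2 of the 6 members in the summed family TPM did not overlap between the genotypes. Of all genes tested, 6.24% did not overlap when their TPM was divided by the same sum. Most of these genes are no part of that sum, whereas each member is, so the percentage is only a rough comparison. Solyc03g120910.4 supplied 26.6%, 39.8%, 25.2% and 33.3% of the summed HD-ZIP III TPM in *plt3* *plt7* replicates 1 to 4, against 57.0%, 64.4%, 53.0% and 53.6% in *ej2* *j2* replicates 1 to 4. These shares did not overlap, with a mean of 31.2% ± 6.69 in *plt3* *plt7* and 57.0% ± 5.24 in *ej2* *j2* (SD, n = 4 each). Shares were described after the levels had been seen and were not tested by themselves.
Beside Solyc03g120910.4, the largest *plt3* *plt7* share was that of *REV* in replicates 1 and 3. It was that of Solyc12g044410.2 in replicate 2 and of Solyc02g024070.3 in replicate 4. *REV* held 27.8%, 14.3%, 49.7% and 18.0% in *plt3* *plt7*, against 13.8%, 3.03%, 12.9% and 1.53% in *ej2* *j2*, so its lowest *plt3* *plt7* share was apart from its highest *ej2* *j2* share by less than 1 percentage point. Solyc02g069830.4 held 9.43%, 16.0%, 2.07% and 15.0% in *plt3* *plt7*, against 1.83%, 2.20%, 3.94% and 3.64% in *ej2* *j2*. Here *plt3* *plt7* replicate 3 was the exception that lay within the *ej2* *j2* range.
Solyc02g024070.3 held 5.54% to 26.0% in *plt3* *plt7* and 2.42% to 21.8% in *ej2* *j2*, Solyc12g044410.2 held 5.89% to 24.0% in *plt3* *plt7* and 8.40% to 28.8% in *ej2* *j2*, and Solyc08g066500.4 stayed at or below 4.05% in *plt3* *plt7* and 4.39% in *ej2* *j2*. Solyc03g120910.4 and Solyc12g044410.2 together held 31.1% to 63.8% of the pool in *plt3* *plt7*, against 70.04% to 82.4% in *ej2* *j2*.
The pool itself varied as much within a genotype as between them. The summed TPM of the 6 genes was 229, 1078, 854 and 537 in *plt3* *plt7*, against 679, 782, 1407 and 707 in *ej2* *j2*, with a mean of 674 ± 371 in *plt3* *plt7* and 894 ± 345 in *ej2* *j2* (SD, n = 4 each). The low value belonged to *plt3* *plt7* replicate 1, which was the lowest library of its genotype for 4 of the 6 members. The high value belonged to *ej2* *j2* replicate 3, which was the highest of its genotype for 5 of the 6. Shares are bound to each other, since a higher share of one gene lowers the rest.

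**Figure D3:**
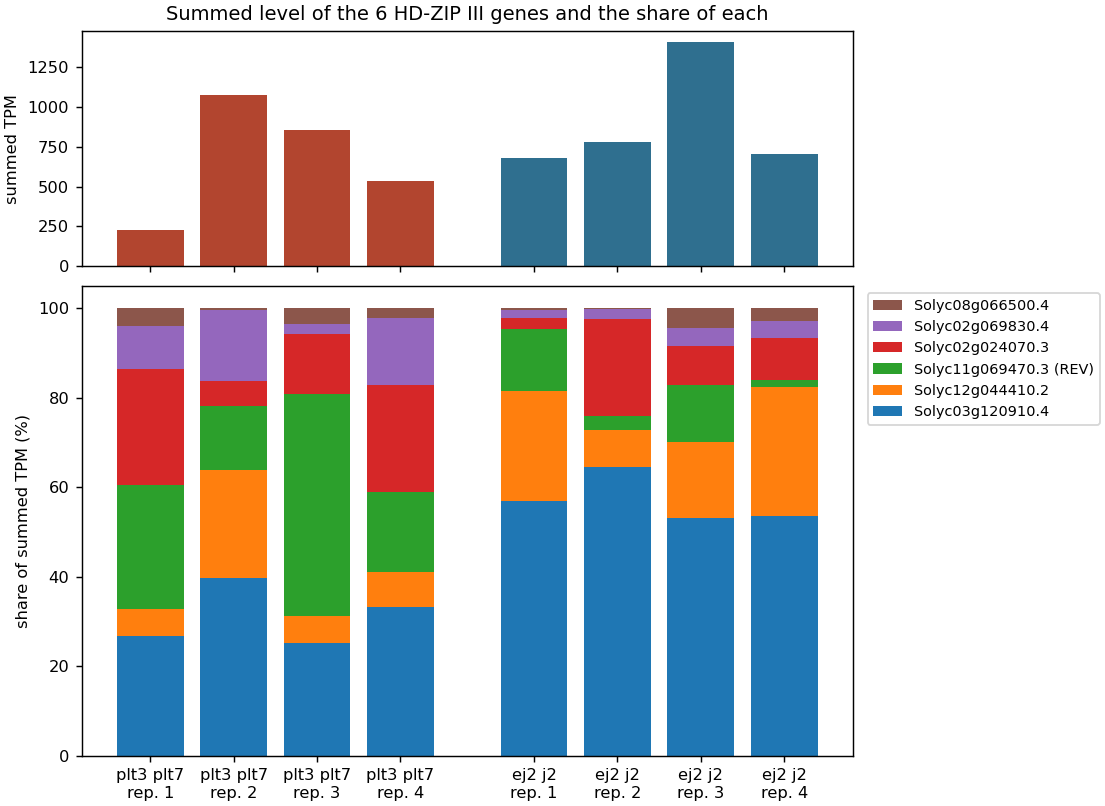
Upper bars give the summed TPM of the 6 HD-ZIP III genes in each library, and lower bars give the percentage of that sum held by each gene, with *plt3* *plt7* libraries on the left and *ej2* *j2* libraries on the right. The lowest segment, Solyc03g120910.4, reaches 25.2% to 39.8% in *plt3* *plt7* and 53.0% to 64.4% in *ej2* *j2*.

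Ratios between members within a library cancel its scaling, apart from the 1 TPM added to each value, and 3 of the 15 possible pairs had ratios that did not overlap between the genotypes. Over all 190974196 pairs of genes tested, 6.86% did not overlap. The pairs are not independent of each other, because each gene enters several of them. The comparison was added after the levels had been seen.
The log2 ratio of *REV* to Solyc03g120910.4 was 0.06, -1.47, 0.98 and -0.88 in *plt3* *plt7*, against -2.03, -4.36, -2.04 and -5.003 in *ej2* *j2*. *REV* was above Solyc03g120910.4 in *plt3* *plt7* replicates 1 and 3 and below it in the other 2, and it was further below it in all 4 *ej2* *j2* libraries. The difference of the means was 3.03 (exact two-sided permutation test, p = 0.0286, adjusted p = 0.143 over 15 pairs).
The log2 ratio of Solyc03g120910.4 to Solyc02g069830.4 was 1.46, 1.31, 3.53 and 1.14 in *plt3* *plt7*, against 4.85, 4.80, 3.73 and 3.83 in *ej2* *j2*, a difference of -2.44. *plt3* *plt7* replicate 3 came closest to the *ej2* *j2* values. The log2 ratio of Solyc12g044410.2 to Solyc02g069830.4 was -0.61, 0.58, 1.46 and -0.94 in *plt3* *plt7*, against 3.65, 1.87, 2.09 and 2.94 in *ej2* *j2*, a difference of -2.51. Both pairs had the same p as the first (exact permutation p = 0.0286, adjusted p = 0.143 over 15 pairs), the smallest that 4 against 4 allow, so none of the 15 pairs passed after adjustment.
The remaining 12 pairs had an exact permutation p of 0.0571 or more. The pair Solyc12g044410.2 over Solyc03g120910.4 varied least within a genotype of the 15 (pooled SD 0.79), with a mean log2 ratio of -1.74 ± 0.67 in *plt3* *plt7* and -1.66 ± 0.89 in *ej2* *j2* (SD, n = 4 each; exact permutation p = 0.914).

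**Figure D4:**
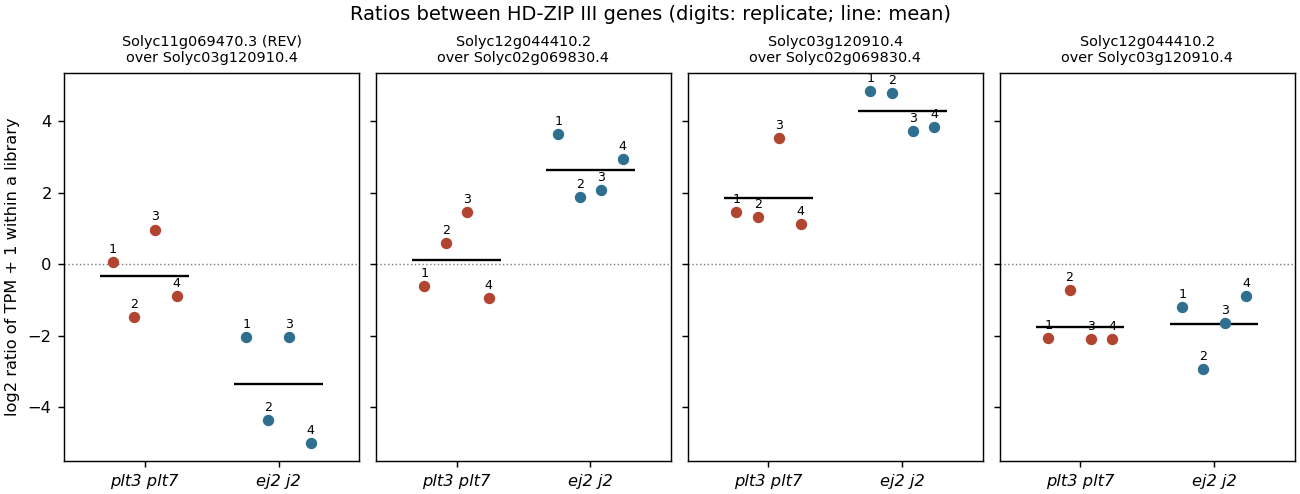
Log2 ratio of TPM + 1 of 2 HD-ZIP III genes within each library, for 4 pairs, with *plt3* *plt7* on the left and *ej2* *j2* on the right of each panel. Points are libraries with their replicate number and lines are means; the first 3 panels do not overlap between genotypes, while Solyc12g044410.2 over Solyc03g120910.4 has means of -1.74 and -1.66.

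Solyc12g044410.2 and Solyc03g120910.4 had the most similar patterns of any 2 members across the 8 libraries. Likeness was measured as the mean absolute difference in log2(TPM + 1) after each gene was centred on its own mean, so 0 means the same pattern. Between these 2 genes it was 0.59, which placed Solyc03g120910.4 at rank 59 of 19543 genes by likeness to Solyc12g044410.2, and Solyc12g044410.2 at rank 255 of 19543 by likeness to Solyc03g120910.4. The median gene lay at 1.43 from Solyc12g044410.2 and 1.22 from Solyc03g120910.4. The 2 genes share the libraries and the low *plt3* *plt7* replicate 1, and no source used here says whether reads that fit both genes could have been counted to either.
No other pair came as close. Solyc02g024070.3 and Solyc02g069830.4 lay 1.00 apart, with 26.1% and 16.2% of genes nearer, and *REV* lay 1.34 to 1.70 from the other members, with 29.3% to 69.6% of genes nearer. The gene nearest to *REV* was Solyc02g091720.2 (0.49), at 7.14, 34.6, 117 and 23.7 TPM in *plt3* *plt7*, against 16.1, 5.92, 20.2 and 4.01 TPM in *ej2* *j2*. Like *REV*, it was highest in replicate 3 of each genotype. The gene nearest to Solyc03g120910.4 was Solyc09g072980.2 (0.24), at 10.5, 84.7, 53.4 and 45.7 TPM in *plt3* *plt7*, against 99.6, 111, 137 and 52.9 TPM in *ej2* *j2*. These IDs have no name in the tables used here.
Members also differed in how evenly they were expressed among libraries of 1 genotype. The residual standard deviation on the log2 scale was 0.88 for Solyc03g120910.4, higher than in 21.4% of 322 genes of like level. It was 1.75 for Solyc08g066500.4, higher than in 95.1% of 3866 genes of like level, and 1.51 for *REV*, higher than in 76.3% of 1817.

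The order of mean levels differed between the genotypes only in that *REV* and Solyc12g044410.2 changed places, a change that did not pass after adjustment. By mean log2(TPM + 1) it ran Solyc03g120910.4, *REV*, Solyc02g024070.3, Solyc12g044410.2, Solyc02g069830.4 and Solyc08g066500.4 in *plt3* *plt7*, and Solyc03g120910.4, Solyc12g044410.2, Solyc02g024070.3, *REV*, Solyc02g069830.4 and Solyc08g066500.4 in *ej2* *j2*. *REV* was above Solyc12g044410.2 in 3 of 4 *plt3* *plt7* libraries and in 0 of 4 *ej2* *j2* libraries, a difference in their log2 ratio of 3.10 (exact permutation p = 0.0571, adjusted p = 0.214 over 15 pairs). Neighbours within a genotype were apart by less than 1 SD of their log2 ratio, except Solyc03g120910.4 over Solyc12g044410.2 in *ej2* *j2*, which differed by 1.66 ± 0.89 (SD, n = 4).
With both genotypes pooled over the 8 libraries, the order ran Solyc03g120910.4, Solyc12g044410.2, *REV*, Solyc02g024070.3, Solyc02g069830.4 and Solyc08g066500.4. Each member was then set against the next in this order, so the pairs and their direction came from the values tested. The adjustment covers these 5 neighbours and not all 15 possible pairs, and the p-values are therefore descriptive. Solyc03g120910.4 exceeded Solyc12g044410.2 in 8 of 8 libraries, by 1.70 ± 0.73 on the log2 scale (SD, n = 8; exact two-sided sign-flip permutation test, p = 0.00781, adjusted p = 0.0391 over 5 neighbours). Solyc12g044410.2, *REV* and Solyc02g024070.3 could not be ordered in the pooled libraries, with neighbours apart by 0.14 ± 2.25 and 0.07 ± 1.92 on the log2 scale (SD, n = 8; exact permutation p = 0.867 and 0.914). Solyc02g069830.4 lay below Solyc02g024070.3 in 7 of 8 libraries and above Solyc08g066500.4 in 6 of 8, with an adjusted p = 0.104 for each step (exact permutation test over 8 libraries).

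Of 39 tested genes in lists related to the family, 1 passed, or 2.56%, against 1.84% of all genes tested. The lists were put together from general knowledge of tomato, and since no table used here gives what their IDs encode, the list names are labels. Of the 14 IDs listed as polarity regulators, namely YABBY, auxin response factor and PHANTASTICA-type genes, 11 were tested and none was higher or lower, with a median log2 difference of -0.35. The lowest was Solyc01g091010.3, at 15.8, 16.2, 14.1 and 12.7 TPM in *plt3* *plt7*, against 139, 48.5, 65.0 and 166 TPM in *ej2* *j2* (log2 difference -2.58, standard error 0.90, adjusted p = 0.111, limma). Its groups do not overlap. Without *ej2* *j2* replicate 3, 1 gene of this list passed.
The highest of that list was Solyc03g118290.3, with a log2 difference of 1.00 (adjusted p = 0.713, limma). None of 5 tested genes listed for the small RNA pathway (median -0.03), of 6 listed as KNOX and stem cell genes (median -1.13) or of 5 listed as class IV HD-ZIP genes (median 0.46) passed. The 3 *MIR166* genes of the RefSeq table carry no ID of the kind in the deposited table, so their level is not given.
The meristem, green tissue and vascular lists served to describe the tissue. The summed level of the 6 KNOX and stem cell genes was 260.2 to 852 TPM in *plt3* *plt7* and 331 to 547 TPM in *ej2* *j2*, and 4 of the 6 had a log2 difference below 0. The highest difference was that of Solyc04g077210.3 (0.85, adjusted p = 0.765, limma). The lowest was that of Solyc01g100510.4, at 15.4, 4.48, 21.3 and 17.5 TPM in *plt3* *plt7*, against 75.3, 34.0, 56.1 and 42.0 TPM in *ej2* *j2* (log2 difference -1.87, adjusted p = 0.318, limma). Its groups do not overlap. Solyc11g071380.1 of the same list was at 0 to 1.13 TPM in *plt3* *plt7* and 0.885 to 8.40 TPM in *ej2* *j2* (log2 difference -1.74, adjusted p = 0.131, limma).
Of 4 genes listed for inflorescence identity, 1 was lower and none higher, against 0.962% of all genes tested that were lower, and all 4 had a log2 difference below 0 (median -1.75). The gene that passed was Solyc02g081670.1, listed at 0 in all 4 *plt3* *plt7* libraries and at 3.70, 8.76, 6.66 and 0.125 TPM in *ej2* *j2* (adjusted p = 0.0242, limma). It did not pass without *ej2* *j2* replicate 2 or 3, without *plt3* *plt7* replicate 1, 2 or 3, without *plt3* *plt7* replicates 2 and 4 together or without a filter on low values, and it was not tested with a minimum mean of 5 TPM. The lowest log2 difference of that list was that of Solyc02g077390.2, at 3.11, 8.80, 3.70 and 51.8 TPM in *plt3* *plt7*, against 64.7, 58.9, 94.7 and 96.3 TPM in *ej2* *j2* (-2.96, adjusted p = 0.0552, limma), and its groups do not overlap.
None of 5 tested green tissue genes and none of 3 tested vascular genes passed. The summed level of the 7 green tissue genes was 465 to 699 TPM in *plt3* *plt7* and 167 to 825 TPM in *ej2* *j2*. The gene with the highest mean in that sum, Solyc03g034220.3, averaged 401 TPM in *plt3* *plt7* and 269 TPM in *ej2* *j2*. Of all genes tested, 3% did not overlap with *plt3* *plt7* lower, a share that leaves out genes averaging below 1 TPM. It therefore cannot be set directly against the whole list, which holds untested genes. In 3 of the 7 green tissue genes, with the untested Solyc02g085950.4 among them, the groups did not overlap, all with *plt3* *plt7* lower. These were Solyc02g063150.3 (18.9 TPM in *plt3* *plt7* and 58.7 TPM in *ej2* *j2* on average), Solyc03g005780.3 (0.144 and 4.91 TPM on average in *plt3* *plt7* and in *ej2* *j2*) and Solyc02g085950.4, listed at 0 in all *plt3* *plt7* libraries and at 0.117 to 1.05 TPM in *ej2* *j2*. The summed level of the 5 vascular genes was 58.1 to 161 TPM in *plt3* *plt7* and 5.22 to 145 TPM in *ej2* *j2*. The highest log2 difference of the vascular list was that of Solyc11g017010.2, at 46.0, 134, 113 and 65.4 TPM in *plt3* *plt7*, against 22.7, 2.83, 54.5 and 23.4 TPM in *ej2* *j2* (log2 difference 2.15, adjusted p = 0.229, limma). The other tested genes of that list, Solyc04g078650.4 and Solyc03g118740.3, had log2 differences of -0.45 and -0.33, which makes the list's median -0.33, while 2 of the 5 genes, Solyc09g072820.4 and Solyc02g072240.3, had means below 1 TPM in both genotypes. HD-ZIP III genes act in vascular as well as meristem tissue in *Arabidopsis*, and the part of either tissue in the shares of *REV* and Solyc03g120910.4 was not tested.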

How the data were processed

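Inflorescence meristems of 8-week-old plants gave 4 *plt3* *plt7* and 4 *ej2* *j2* libraries, prepared after removal of ribosomal RNA. The authors trimmed reads with Trimmomatic, mapped these to SL4.0 cDNA models using STAR 2.6.1, and deposited TPM values. No source used here states the strand setting or the treatment of multi-mapping reads. Every sample column was used. Of 34109 genes, 8538 were at 0 in all libraries.
Values were analysed as log2(TPM + 1), which understates changes of low genes, for the 19544 genes averaging 1 TPM or more. Differences were fitted using limma 3.58.1 under R 4.3.3 (eBayes with trend, two-sided, Benjamini-Hochberg adjustment, threshold 0.05). limma's prior degrees of freedom (median 365) make each standard error depend mostly on genes of similar level. The procedure was tested on simulated data. Permutation tests used scipy 1.17.1, and figures matplotlib 3.10.9. Permutation p-values rest on each gene's own spread between libraries, described as biological replicates. Those from limma rest mostly on the spread of genes of similar level between the same libraries.
Members and lists were chosen with earlier results of these data known. Named genes were all members, list genes that passed or had the highest or lowest difference of their list, and the gene most like *REV* and like the highest member. Solyc11g071380.1, Solyc03g118740.3, Solyc03g005780.3, Solyc02g085950.4, Solyc09g072820.4 and Solyc02g072240.3 were added after their values were seen. Alternatives were other pseudocounts, filters, scalings, library weights, a replicate block and leaving out libraries. The study's own plot of *PLT* and *SEPALLATA* gene levels counts 2 *plt3* *plt7* samples in its legend, without naming them. *plt3* *plt7* replicates 2 and 4 were left out together in 1 alternative because an earlier reading of that plot took these for the libraries not drawn, which was not checked here. Sequences were not analysed here.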

Additional observations from a re-analysis of the deposited data

Results flagged for a closer look

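The level of Solyc12g044410.2 in *plt3* *plt7* replicate 2, 259 TPM, stood well above the rest of its genotype (13.8, 50.3 and 41.5 TPM), with a gap of 0.851 of the whole range, above Dixon's critical value at 95% for 4 samples. It was the only such library among 12 groups of 4 checked, where the critical value is meant to pass about 5% of groups by chance. The gap was taken on TPM and not on log2(TPM + 1), the scale of the limma fits. Whether this library would also stand apart on the log2 scale was not tested. *plt3* *plt7* replicate 2 was also the highest of its genotype for Solyc03g120910.4 and Solyc02g069830.4. Without it, the log2 difference of Solyc12g044410.2 was -2.27 (adjusted p = 0.274, limma).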

How the results depend on the processing

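None of the 6 HD-ZIP III genes passed under any of the 17 alternatives, with adjusted p from 0.274 upward (limma). *REV*, Solyc03g120910.4 and Solyc12g044410.2 kept their direction under all 17. Leaving out 1 library gave 0.93 to 2.24 for *REV*, -1.86 to -0.93 for Solyc03g120910.4 and -2.27 to -0.89 for Solyc12g044410.2. It gave -0.39 to 0.71 for Solyc02g024070.3, -0.47 to 1.09 for Solyc08g066500.4 and 0.40 to 1.47 for Solyc02g069830.4. Leaving out *plt3* *plt7* replicates 2 and 4 together gave 1.81 for *REV*, -2.07 for Solyc03g120910.4 and -2.48 for Solyc12g044410.2. Direction turned to -0.011 for Solyc08g066500.4 with library weights and to -0.26 for Solyc02g069830.4 without *plt3* *plt7* replicates 2 and 4. Leaving out 1 library gave a mean share of Solyc03g120910.4 of 28.4% to 33.2% in *plt3* *plt7* and 54.5% to 58.3% in *ej2* *j2*. For *REV* the mean share was 20.0% (without replicate 3) to 31.8% in *plt3* *plt7*, against 27.4% with all 4. In *ej2* *j2* that of *REV* was 5.81% to 9.90%, against 7.81% with all 4. In *plt3* *plt7* the mean share of Solyc12g044410.2 was 6.55% without replicate 2, against 10.9% with all 4, and in *ej2* *j2* that of Solyc02g024070.3 was 6.88% without replicate 2 (10.6% with all 4) and that of Solyc08g066500.4 was 1.15% without replicate 3 (1.96% with all 4). It left the log2 ratio of *REV* to Solyc03g120910.4 differing by 2.48 to 3.47. The number of all genes that differ (359) was 11 with no low-value filter, in which limma's prior degrees of freedom were 5.84, 229 with a minimum mean of 5 TPM, 85 without *plt3* *plt7* replicates 2 and 4, and 138 (without *plt3* *plt7* replicate 4) to 446 (without *ej2* *j2* replicate 2) leaving out 1 library. Of the inflorescence identity list, 2 genes passed with median-of-ratios rescaling and with library weights. Replicate numbers are shared by the genotypes but correlated at most at 0.0126 in same-numbered libraries, so they do not pair them; with a replicate block 303 genes differed, and no HD-ZIP III gene did (adjusted p = 0.454 for *REV*, limma). Depth is unknown, so the counting error of low values cannot be given.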
